A study of Rattus norvegicus with 8 samples.

Results

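Periostin (Postn), tenascin C (Tnc), thrombospondin 1 and 2 (Thbs1, Thbs2), osteonectin (Sparc), fibronectin (Fn1), fibrillin 1 (Fbn1), elastin (Eln), Emilin1 and Ltbp2 are 10 genes for secreted proteins of the extracellular matrix. They were taken by symbol from 2 tables of gene expression, of 14295 genes in precursor cells and 18236 genes in adipocytes, and each symbol had 1 row in each table. The study asked whether diet-induced obesity in Wistar rats goes with changes in fat cell precursors and with altered adipocytes made from them. Adipose-derived stem cells (ASC), freed from inguinal fat with collagenase and cultured, came from wild-type rats kept for 6 months on the Control Diet (C) or on the High Fat and Sucrose Diet (HFS). Adipocytes (AD) were grown from them with dexamethasone at 5.0 µM, the phosphodiesterase inhibitor IBMX at 0.5 mM and insulin at 10.0 µg/mL for 3 days, then with insulin alone for 7 days. The groups ASC_C, ASC_HFS, AD_C and AD_HFS have 2 RNA sequencing libraries each. The labels call the cells Mesenchymal stem cells and give neither the age nor the sex of the rats. Nor do they state if the 2 libraries in each group derive from different rats or cultures, so each p below measures the spread between these libraries, which may be technical. The genes were chosen by how HFS differed from C in these same tables, by the ratio of their normalized counts, with Postn one way and Tnc the other. Their HFS to C differences are therefore given as descriptions, without a test.

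Matricellular proteins such as periostin, tenascin C, the thrombospondins and osteonectin sit in the matrix mainly to modulate how cells attach and signal, rather than to bear load, and many are made in quantity during development and tissue repair. Elastic fibres have an elastin core on a scaffold of microfibrils built from fibrillins. Emilin1 lies at the interface of core and microfibril, LTBP2 binds fibrillin 1, and fibronectin fibrils act as an early template on which other matrix proteins assemble. In fat, the matrix is remodelled as adipocytes enlarge, and it is deposited mainly by stromal cells.

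The 250 bases before the start site are shown for Postn and Tnc, because these genes differed in opposite directions between the diets in both tables, and for Ltbp2, because its profile over the 8 libraries was the nearest to that of Tnc. Sequences are from RefSeq on build GRCr8, which is not the build the reads were counted on, and they run 5′ to 3′ on the strand of the gene. Capitals mark matches on either strand to the SMAD-binding letters CAGAC or to the TATA box letters TATAAA.
Postn, chr2:140677811-140678060, plus strand: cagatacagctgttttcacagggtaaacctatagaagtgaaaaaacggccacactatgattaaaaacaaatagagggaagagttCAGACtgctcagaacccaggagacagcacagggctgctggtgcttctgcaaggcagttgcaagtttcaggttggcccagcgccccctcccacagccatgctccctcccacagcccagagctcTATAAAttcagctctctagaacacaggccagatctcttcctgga
Tnc, chr5:82476132-82476381, minus strand: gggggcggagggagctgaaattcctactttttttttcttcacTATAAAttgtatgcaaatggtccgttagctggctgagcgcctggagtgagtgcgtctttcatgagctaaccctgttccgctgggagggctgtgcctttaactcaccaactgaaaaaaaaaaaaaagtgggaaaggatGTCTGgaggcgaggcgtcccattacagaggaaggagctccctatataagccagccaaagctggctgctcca
Ltbp2, chr6:110257299-110257548, minus strand: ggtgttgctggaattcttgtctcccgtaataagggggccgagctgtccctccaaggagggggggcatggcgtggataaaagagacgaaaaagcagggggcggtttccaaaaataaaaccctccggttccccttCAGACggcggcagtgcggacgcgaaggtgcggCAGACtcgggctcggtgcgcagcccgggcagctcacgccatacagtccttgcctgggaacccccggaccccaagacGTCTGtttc
TATAAA was found 44 to 39 bases before the start of Postn and 208 to 203 bases before the start of Tnc, and it was not in the Ltbp2 window. Only the exact letters were marked, and the Tnc window also holds TATATAA close to the start. CAGAC was present once in the windows of Postn and Tnc and 3 times in that of Ltbp2. Of all 33469 promoter windows of this length, 12.9% hold TATAAA and 42.9% hold CAGAC, so a CAGAC match is common. The AP-1 letters TGANTCA (in 6.34% of all windows), the CArG box bound by SRF (in 1.5%) and the hypoxia element ACGTG (in 16.6%) did not occur in any of the 6 members' windows at hand, those of Postn, Tnc, Ltbp2, Thbs1, Sparc and Fbn1. The TEAD letters GGAATG, in 12.1% of all windows, occurred in those of Thbs1 and Sparc. These matches are a description of letters and not of binding.

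Depth differed strongly between the stages. Recovered reads numbered 992618 to 7290961 per ASC library and 76083827 to 119555051 per AD library, and ASC_HFS replicate 2 was the shallowest. There, 3 reads are worth 10.9 normalized counts, while the lowest member, Ltbp2, had 11 reads. The AD_HFS libraries were much closer to each other than the AD_C libraries were, with a median absolute log2 difference over genes of 0.07 against 0.32. Among the 10 genes in AD, the C libraries lay further apart than the HFS libraries for each gene except Thbs2. Markers of the labelled cells were present: all 11 mesenchymal progenitor markers had reads in all 4 ASC libraries, and 10 adipocyte markers took 0.191% to 0.453% of reads in ASC_C and 1.99% to 2.45% in AD_C.

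Before differentiation, Postn was higher and Tnc, Emilin1 and Ltbp2 were lower in cells from HFS-fed rats, and the other 6 genes lay within 2.03-fold of C. Postn, a fibroblast protein that binds integrins and aids collagen cross-linking, was at 1163 and 1559.7 normalized counts (reads scaled for depth within the table) for ASC_C and at 5325 and 6651 for ASC_HFS. Both HFS libraries stood far above both C libraries, and the ratio of the means was 4.40 (1362 ± 280.2 in C and 5988 ± 937 in HFS, SD, n = 2). Tnc, an adhesion-modulating glycoprotein, was at 2039 and 1492 in C against 273 and 105 in HFS. The C mean was 9.35 times the HFS mean (1765 ± 387 in C and 189 ± 118 in HFS), and the lower HFS value rests on 29 reads.

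The thrombospondins and osteonectin differed less. Thbs1, an activator of latent TGF-beta, was at 2500.1 and 2003 in C and 2269.8 and 3129 in HFS. Thbs2, its close relative and an inhibitor of vessel growth, was at 4959 and 4587 in C and 3872 and 5012 in HFS. The groups overlapped for both genes, with ratios of 1.20 and 0.931. Sparc, a collagen-binding protein, was at 17466 and 11360.0 in C and 21234 and 21479 in HFS. Its HFS libraries lay above both C libraries, at a ratio of 1.48 that is close to the 1.54-fold gap between the C libraries themselves. Fn1 overlapped, at 7808 and 5323 in C and 7638 and 7811 in HFS.

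Of the 4 elastic fibre members, Fbn1 and Eln were higher and Emilin1 and Ltbp2 lower in ASC_HFS. Fbn1, the gene of the main microfibril protein, was at 1221 and 1233 in C and 1979 and 1813 in HFS, a ratio of 1.55. Eln, the gene of the fibre core, was at 248 and 766 in C and 1026 and 1033 in HFS, a ratio of 2.03, and the low value of ASC_C replicate 1 carries much of it, since the ratio was 1.34 without that library and 4.15 without ASC_C replicate 2. Emilin1 was at 2093 and 1455 in C against 213 and 76.2 in HFS, and the C mean was 12.3 times the HFS mean. Ltbp2 was at 1036 and 986 in C against 175 and 39.9 in HFS, and the C mean was 9.40 times the HFS mean. For Tnc, Emilin1 and Ltbp2, both C libraries lay well above both HFS libraries, while the HFS libraries differed by 2.59-fold, 2.79-fold and 4.39-fold between themselves, with the shallow library, replicate 2, lower each time. Without ASC_HFS replicate 2 the HFS to C ratios were 0.154 for Tnc, 0.120 for Emilin1 and 0.173 for Ltbp2, and without ASC_HFS replicate 1 they were 0.0596, 0.0429 and 0.0395, beside 0.107, 0.0814 and 0.106 with all libraries.

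**Figure D1:**
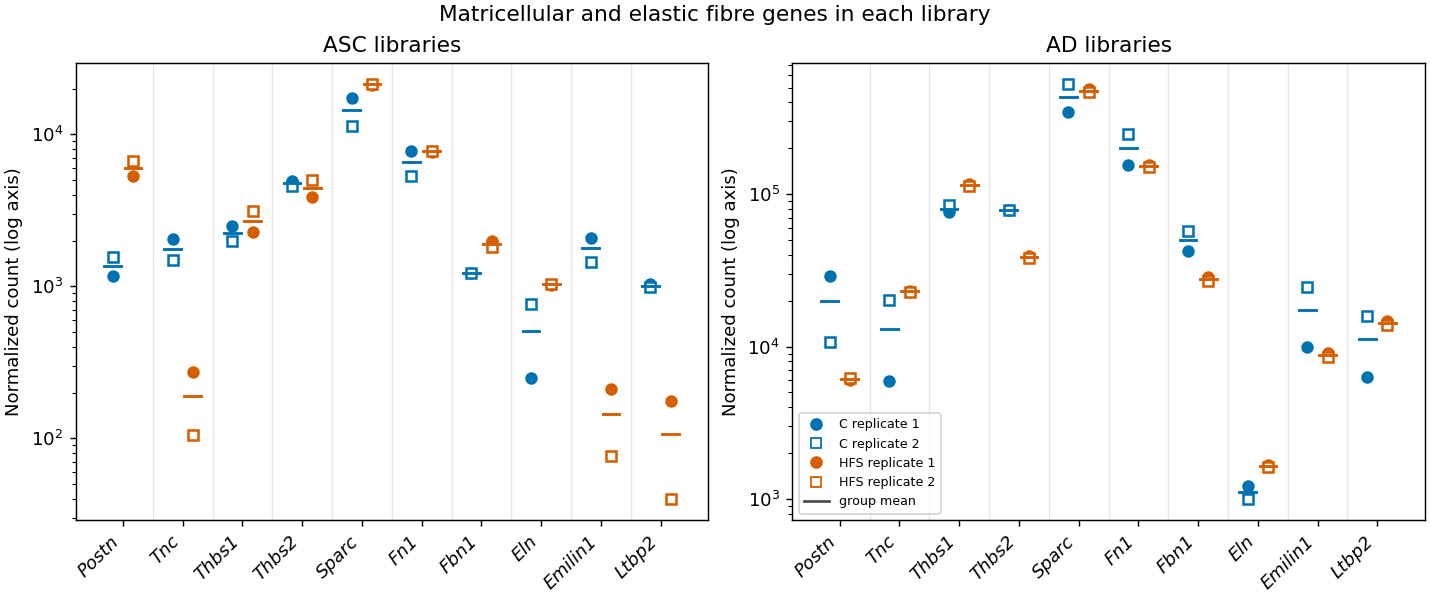
Normalized counts (log axis) of the 10 genes in each ASC library (left) and AD library (right), with C in blue, HFS in orange, replicate 1 filled, replicate 2 open and bars at the group means. Postn stands above C in ASC_HFS and below C in AD_HFS, Tnc does the reverse, and the AD_HFS pair nearly coincides for every gene; the 2 panels were scaled separately.

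In ASC, 4 of the 10 genes lay above C in both HFS libraries (Postn, Sparc, Fbn1 and Eln), 3 lay below (Tnc, Emilin1 and Ltbp2) and 3 overlapped, where 61.0% of all genes did not overlap (28.5% above and 32.5% below). By the call used for all genes (limma-trend, adjusted p under 0.05), 1 member was higher and 3 were lower, where 19.1% of all genes were called (9.41% higher and 9.7% lower). These counts describe how the genes were chosen. The median log2 difference of the 10 was 0.25 on the deposited scale, against -0.04 over all genes.

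Markers of other cells and of the smooth muscle programme moved alongside in ASC_HFS. Of 12 macrophage markers 10 rose and 0 fell, and the list took 0.0966% to 0.102% of reads in C and 0.308% to 0.332% in HFS. Of 9 measured endothelial markers 7 rose (0.0295% to 0.0640% and 0.118% to 0.126%), and of 8 epithelial and mesothelial markers 6 rose and 1, Msln, fell (0.00850% to 0.00944% and 0.0261% to 0.0262%). Of 12 smooth muscle and pericyte markers 3 rose (the pericyte markers Rgs5, Abcc9 and Notch3) and 3 fell (the contractile genes Acta2, Tagln and Smtn), and the list took 0.0550% to 0.0658% in C and 0.0291% to 0.0407% in HFS. Of 11 mesenchymal progenitor markers 5 rose and 3 fell (0.857% to 0.979% and 0.711% to 0.733%), and of 8 markers of dividing cells 6 fell (0.0431% to 0.0477% and 0.0281% to 0.0288%). Among these lists, the markers without reads in a library were Cnn1, Msln, Wt1, Cdk1 and Ccnb1, all in ASC_HFS replicate 2. In such bulk libraries fewer cells of a type and less RNA per cell cannot be told apart, and the part of these markers in the matrix gene differences was not tested.

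After differentiation the order of Postn and Tnc was the opposite one. Postn was at 29039 and 10794 in AD_C against 6044 and 6210.5 in AD_HFS. Both C libraries were above both HFS libraries, and the C mean was 3.25 times the HFS mean (19916 ± 12901 in C and 6127 ± 117 in HFS, SD, n = 2). Tnc was at 5925 and 20119.8 in AD_C against 23207 and 22964 in AD_HFS, a ratio of 1.77. The 2 AD_C libraries stood far apart for both genes, 2.69-fold for Postn and 3.40-fold for Tnc, and in opposite directions. Replicate 2 lay close to the HFS level for Tnc, so that the Tnc ratio was 1.15 without AD_C replicate 1 and 3.90 without AD_C replicate 2. The Postn ratio of HFS to C, 0.308, was 0.568 and 0.211 without the same libraries.

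The thrombospondins parted in the adipocytes. Thbs1 was at 76102 and 84654 in AD_C and 116579 and 113897 in AD_HFS, a ratio of 1.43. Thbs2 was at 79011 and 79228 in AD_C and 39406 and 37999 in AD_HFS, so that C was 2.04 times HFS. Replicates lay within 1.11-fold of each other for Thbs1 and within 1.04-fold for Thbs2, a closeness that Postn and Tnc did not have in AD_C. Sparc (344634 and 528840.0 in C, 488965 and 467024 in HFS) and Fn1 (154443 and 247611 in C, 155607 and 149661 in HFS) overlapped.

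Of the elastic fibre genes, Fbn1 was lower in AD_HFS, at 42458 and 57563 in C and 28504 and 27085 in HFS, with the C mean 1.80 times the HFS mean. Eln was higher, at 1210.4 and 999 in C and 1671 and 1625 in HFS, a ratio of 1.49. Emilin1 was lower in AD_HFS too, at 10004 and 24633 in C and 9016 and 8529 in HFS. AD_C replicate 2 carries most of its difference, since the HFS to C ratio of 0.507 was 0.877 without that library and 0.356 without AD_C replicate 1. Ltbp2 overlapped, at 6357 and 15914 in C and 14788 and 13886 in HFS, and its ratio was 0.901 without AD_C replicate 1 and 2.26 without AD_C replicate 2.

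In AD, 3 of the 10 genes lay above C in both HFS libraries (Tnc, Thbs1 and Eln), 4 lay below (Postn, Thbs2, Fbn1 and Emilin1) and 3 overlapped, where 47.7% of all genes did not overlap (24.2% above and 23.5% below). By the all-gene call 1 member, Thbs2, was lower, where 1.34% of all genes were called in either direction and 0.0329% were called lower. As in ASC, these counts describe how the genes were chosen, and nothing is read from them. The median log2 difference of the 10 was -0.10, against -0.01 over all genes. Eln was the gene that lay above C, and Emilin1 the gene that lay below C, in both tables. Postn, Tnc and Fbn1 changed sides.

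**Figure D2:**
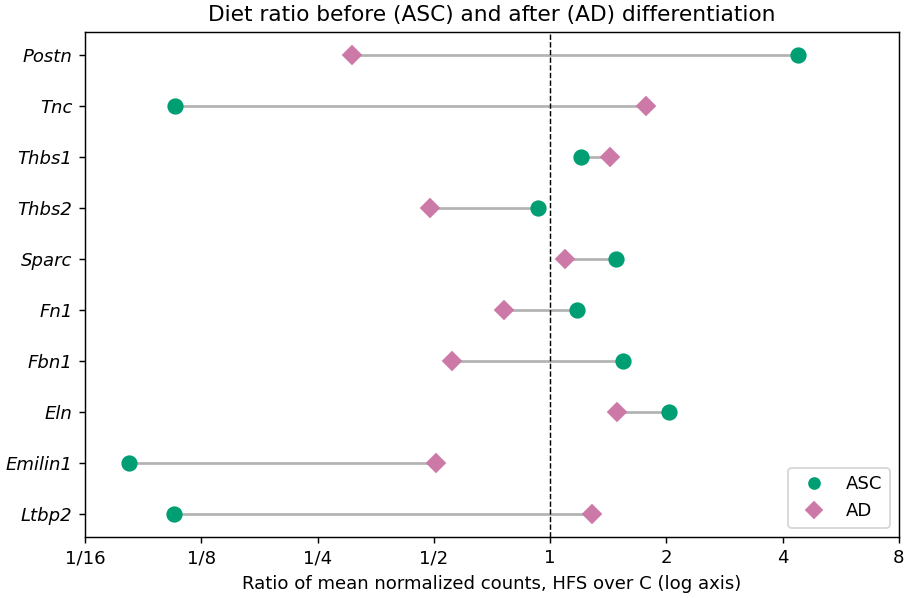
Ratio of mean normalized counts, HFS over C (log axis), for each gene in ASC (circles) and AD (diamonds), with a dashed line at a ratio of 1. Postn runs from 4.40 in ASC to 0.308 in AD and Tnc from 0.107 to 1.77.

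In AD, too, macrophage markers were higher in HFS. Of 12 macrophage markers 6 rose (3 by limma-voom on the recovered reads) and all 12 lay above C in both HFS libraries, with 0.0408% to 0.0783% of reads in C and 0.368% to 0.369% in HFS. Over all AD genes, 24.2% lay above C in both HFS libraries and 1.31% were called higher by limma-trend. Of 12 smooth muscle and pericyte markers 0 passed by limma-trend and 0 by limma-voom (4 at an unadjusted p under 0.05), and 7 lay above C in both HFS libraries, and the list took 0.0481% to 0.0595% of reads in C and 0.0998% to 0.101% in HFS. The contractile gene Acta2, chosen after its values were seen, was at 15207 and 5801 in C against 29567 and 29196 in HFS (adjusted p = 0.223), and in ASC it fell from 441 ± 11.4 to 149.9 ± 42.8 (adjusted p = 0.00431). Both tools also called 0 of 11 mesenchymal progenitor markers, of which 5 were at an unadjusted p under 0.05 (0.528% to 0.688% of reads in C and 0.375% to 0.386% in HFS), and 0 of 10 adipocyte markers, with 2 at an unadjusted p under 0.05 (1.99% to 2.45% and 2.33% to 2.35%). The 8 markers of dividing cells all lay above C in AD_HFS, with 0 called by either tool and 6 at an unadjusted p under 0.05 (0.00802% to 0.0104% and 0.0155% to 0.0155%). Of 9 endothelial markers 1, Tie1, rose by limma-trend and 0 by limma-voom (0.0325% to 0.0444% and 0.0410% to 0.0421%). Of these 9 markers, 7 lay above C in both HFS libraries and 5 were at an unadjusted p under 0.05 by limma-trend. No marker of these lists lacked reads in an AD library. The part of these markers was not tested.

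The ratio of reads of 2 genes within a library does not depend on how libraries were scaled, and its change between libraries does not depend on gene length. Postn had 0.571 and 1.05 reads per read of Tnc in ASC_C, and 19.5 and 63.2 in ASC_HFS. The ratio was 4.90 and 0.536 in AD_C, and 0.260 and 0.270 in AD_HFS. Both ASC_HFS libraries were thus above both ASC_C libraries and both AD_HFS libraries below both AD_C libraries. That separation follows from the choice of Postn and Tnc for moving in opposite directions, and nothing is read from it. The AD_C libraries stood apart, with replicate 1 above both ASC_C libraries and replicate 2 below them. Thbs1 had 0.504 and 0.437 reads per read of Thbs2 in ASC_C and 0.586 and 0.624 in ASC_HFS. In adipocytes it had 0.963 and 1.07 in AD_C and 2.96 and 3.00 in AD_HFS. The ratio of Thbs1 to Thbs2 was higher in HFS than in C at both stages, and the 4 groups did not overlap. In ASC the step was small, Thbs2 had more reads than Thbs1 in every library, and each gene alone overlapped between the diets. How many other gene pairs separate in this way was not counted.

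**Figure D3:**
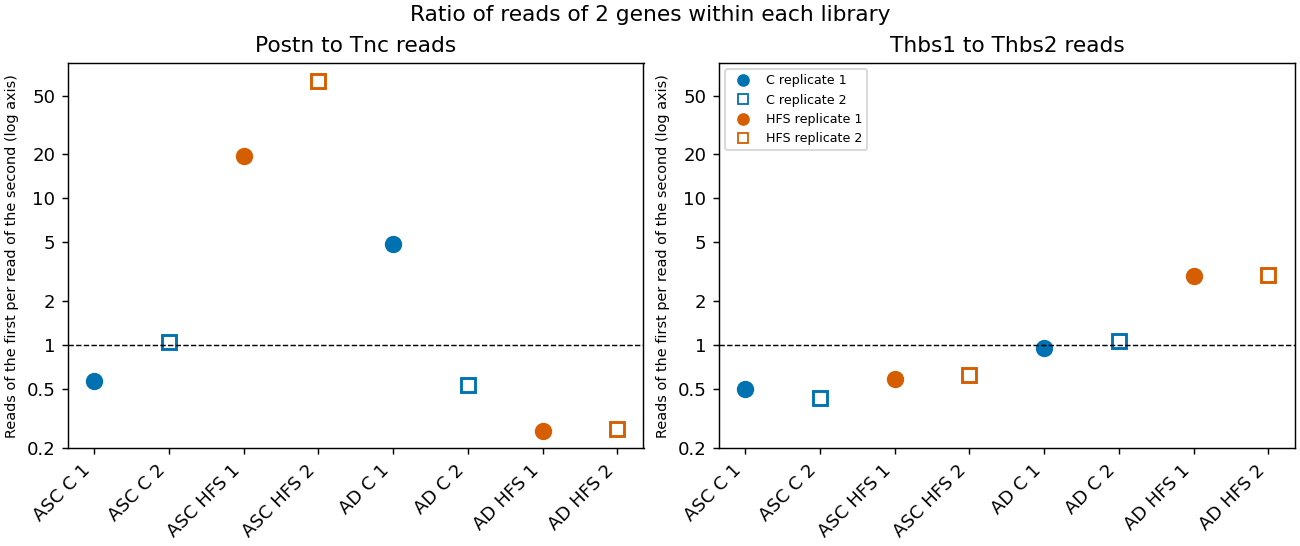
Reads of Postn per read of Tnc (left) and of Thbs1 per read of Thbs2 (right) in each of the 8 libraries (log axis, dashed line at 1), with C in blue and HFS in orange. The Postn to Tnc ratio is highest in ASC_HFS, at 19.5 and 63.2, and lowest in AD_HFS, at 0.260 and 0.270, while the Thbs1 to Thbs2 ratio is highest in AD_HFS, at 2.96 and 3.00.

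Levels at the 2 stages are set side by side as reads per 1000000 reads (RPM) of the 14018 genes that both tables list. The tables were normalized separately and the stages differ in depth, so no test was made between them. The 10 genes together held 1.31% and 0.941% of these reads in ASC_C, 1.21% and 1.31% in ASC_HFS, 0.779% and 1.11% in AD_C, and 0.909% and 0.876% in AD_HFS. The summed share spanned less than the levels of most single genes did. Eln was at 157 ± 109 RPM (mean ± SD, n = 2) in ASC_C and 11.5 ± 1.54 in AD_C, and at 284 ± 4.22 and 17.0 ± 0.292 on the HFS diet. Its precursor libraries lay above its adipocyte libraries on both diets, as did those of Postn and Thbs2.

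Postn was at 427 ± 71.5 RPM in ASC_C and 207 ± 134 in AD_C, and at 1655 ± 275 in ASC_HFS and 63.1 ± 1.36 in AD_HFS. The precursor mean was 2.06 times the adipocyte mean on the control diet and 26.2 times on HFS. Tnc was at 558 ± 143 in ASC_C and 136 ± 105 in AD_C, but at 52.0 ± 32.2 in ASC_HFS and 238 ± 1.21 in AD_HFS. Tnc, Emilin1 and Ltbp2 were lower in adipocytes than in precursors on the control diet and higher on HFS, in every library of each group. For Ltbp2 the means were 318 ± 23.3 and 116 ± 70.5 on the control diet and 29.6 ± 26.1 and 148 ± 6.22 on HFS. For Emilin1 they were 561 ± 164 and 180.3 ± 108, and 39.7 ± 26.3 and 90.4 ± 3.34. Fbn1 lay the other way round, at 386 ± 12.3 and 521 ± 112 on the control diet and 523 ± 27.3 and 286 ± 9.66 on HFS. Sparc (4562 ± 1535 and 4546 ± 1361), Fn1 (2077 ± 633 and 2092 ± 688) and Thbs1 (711 ± 138 and 836 ± 64.0) overlapped between the stages on the control diet.

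Genes with the profile most like that of Postn or Tnc were sought among 7572 genes with a mean of at least 50 normalized counts in each table. They were those that differed least over the 8 libraries in log2(deposited value + 1), centred within each table. That scale draws low counts together, so likeness on it is not likeness in normalized counts. Nearest to Postn were Gem, a small GTPase gene (root mean square difference 0.18), the microfibril gene Mfap2 (0.25), the plasminogen activator gene Plat (0.27), ENSRNOG00000033581, for which the tables give no symbol (0.28), and the prostaglandin synthase gene Ptgs2 (0.28). The median over all genes was 1.00. Mfap2, for example, was at 19.5 and 39.0 normalized counts in ASC_C, 135 and 308 in ASC_HFS, 1604 and 277 in AD_C, and 147 and 138 in AD_HFS. Like Postn, it was higher in ASC_HFS, lower in AD_HFS and highest of the AD libraries in AD_C replicate 1. Nearest to Tnc were Ltbp2 (0.26), the BMP antagonist gene Grem1 (0.27), and the cell division genes Spc24 (0.39), Cdk1 (0.41) and Tk1 (0.44), where the median over all genes was 1.23. Grem1 was at 495 and 349 in ASC_C and 11.2 and 0 in ASC_HFS, and at 1009 and 2323 in AD_C and 2559.5 and 2779 in AD_HFS. In normalized counts the ASC_C mean was 9.35 times the ASC_HFS mean for Tnc and 9.40 times for Ltbp2. It was 75.2 times for Grem1, 25.1 for Spc24, 22.5 for Cdk1 and 11.8 for Tk1. In ASC_HFS replicate 2, Grem1, Spc24 and Cdk1 were at 0 and Tk1 at 3.63 normalized counts, so these 4 ratios are imprecise. Likeness here includes the gap between the AD_C libraries and the shallow depth of ASC_HFS replicate 2, which all genes share.

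The rest of the pathway was followed in 4 lists of genes with textbook roles beside those of the 10, tested with limma-trend within each table and adjusted over all its genes. In ASC, 34 of 81 measured genes were called.

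Of 19 other matricellular genes, 5 rose and 3 fell in ASC_HFS, 8 where 19.1% of all genes were called, with a median log2 difference of 0.12. Ecm1, which binds matrix proteins in skin, rose 4.87-fold, its normalized count going from 536 ± 291 to 2614 ± 420.2 (adjusted p = 9.34e-04). Sparcl1, the close relative of Sparc, rose 3.91-fold, from 448 ± 251 to 1754 ± 3.19 (adjusted p = 0.00211). Tgfbi, the close relative of Postn, rose 3.02-fold, from 316 ± 71.1 to 952 ± 8.03 (adjusted p = 0.00317). Each of these rose with both HFS libraries above both C libraries. Spp1, the osteopontin gene, fell, and its C mean was 6.76 times the HFS mean (from 4324 ± 593 to 639.9 ± 22.8, adjusted p = 1.13e-04). Ccn4, a CCN family gene, fell 6.81-fold and Spon2 2.34-fold (adjusted p = 0.00269 and 0.0177). Ccn4 had 33 and 3 reads in the ASC_HFS libraries, so its fold rests on few reads.

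Of 26 other elastic fibre genes, 9 rose and 3 fell in ASC_HFS (median log2 difference 0.22). Ltbp4, an LTBP that aids elastin assembly, rose 6.48-fold, at 121 and 243 in C against 1044 and 1316 in HFS (adjusted p = 2.03e-04). The microfibril gene Mfap2 rose 7.58-fold and the fibulin gene Efemp1 4.75-fold (adjusted p = 0.00169 and 5.03e-04). Efemp2, the fibulin 4 gene needed for elastic fibre formation, fell, at 2408 and 1892 in C against 334 and 301 in HFS, with the C mean 6.77 times the HFS mean (adjusted p = 9.14e-05). Adamts10, whose protease binds fibrillin microfibrils, fell 3.35-fold (adjusted p = 0.00496). Ltbp1 and Ltbp3 rose as well, while their relative Ltbp2 was lower. Emilin2 rose 2.13-fold (adjusted p = 0.0232) while Emilin1 was lower, and these relatives were picked out after their values were seen.

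Of 18 receptor genes, 4 rose and 1 fell in ASC_HFS (median log2 difference 0.03). Stab1, a scavenger receptor of macrophages and endothelium that takes up Sparc, rose 8.02-fold, from 65.3 ± 24.3 to 524 ± 84.3 (adjusted p = 9.88e-05). Itga5, the alpha chain of the main fibronectin receptor, rose 2.53-fold and the syndecan gene Sdc4 2.49-fold (adjusted p = 0.00730 and 0.0190). Of 18 processing and degrading genes, 7 rose and 2 fell (median log2 difference 0.42). The urokinase gene Plau rose 7.14-fold, the transglutaminase gene Tgm2 4.33-fold and the metalloproteinase inhibitor gene Timp3 3.71-fold (adjusted p = 1.71e-04, 5.17e-04 and 0.00348). Mmp12, the macrophage elastase gene, fell while 10 of 12 macrophage markers rose, at 3013 and 1479 in C against 104 and 21.8 in HFS (adjusted p = 2.20e-05), and Mmp9 fell 2.30-fold (adjusted p = 0.0422). The Mmp12 value of ASC_HFS replicate 2 rests on 6 reads. Without any 1 of the 4 ASC libraries, limma-trend called 0 genes in the table and thus 0 in these lists, with 2318 to 4538 genes of the table at an unadjusted p under 0.05. With all 4 libraries limma-voom on the recovered reads called 10, 13, 6 and 11 genes of the 4 lists in this order.

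In AD, 2 of 84 measured genes of the lists were called, where 1.34% of all genes were. Tgfbi rose 5.21-fold, at 317 and 389 in C against 1958 and 1719 in HFS (adjusted p = 0.0248), and Plau rose 2.63-fold, at 1188 and 994 in C against 2887 and 2840.3 in HFS (adjusted p = 0.0351). Both had risen in ASC_HFS as well, so Tgfbi was higher in HFS in both tables while its relative Postn was lower in AD_HFS. Of 27 elastic fibre genes and 19 receptor genes 0 were called by limma-trend and 0 by limma-voom, with 7 of each list at an unadjusted p under 0.05. Median log2 differences were 0.12 for the matricellular, -0.04 for the elastic fibre, 0.06 for the receptor and -0.01 for the processing genes. Mfap2 was at 1604 and 277 in C against 147 and 138 in HFS and did not pass (adjusted p = 0.401). Without AD_HFS replicate 1 or 2 no gene of the table was called, and 898 and 881 genes had an unadjusted p under 0.05. Without AD_C replicate 1 or 2 the spread came from the close HFS pair alone, and 7106 and 9830 genes were called.

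**Figure D4:**
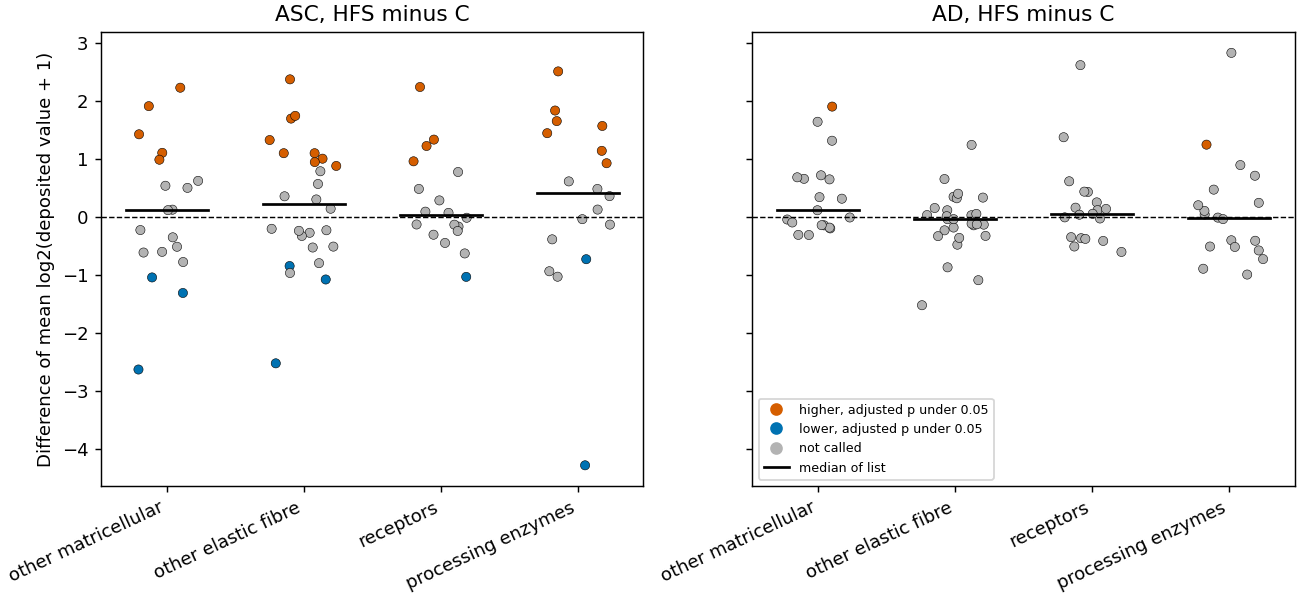
Difference of mean log2(deposited value + 1), HFS minus C, of each gene in the 4 lists of related genes in ASC (left) and AD (right), with genes called higher in orange, called lower in blue, not called in grey, and a bar at the median of each list. In ASC 34 genes are called, on both sides of 0, and in AD only Tgfbi and Plau are, both higher.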

How the data were processed

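Gene-level values of 4 ASC and 4 AD libraries (2 deposited tables, 50 bp paired-end reads) were used. The submitters' processing notes name DESeq2, featureCounts, STAR and FastQC, and the genome builds rn7 and mRatBN7.2, without versions. The labels name both polyA RNA and an rRNA depletion kit. The deposited values are a signal: base 2 antilogs of variance-stabilized counts, scaled by the authors within each table, with 1 lowest value per table for genes without reads. Inverting that transformation gave whole reads for 100% of values (tolerance 1e-06), and from them the depths, normalized counts, ratios and RPM. The p-values here are two-sided. HFS was compared with C within each table with limma-trend, run in R 4.3.3 with limma 3.58.1, on log2(value + 1), mean value at least 10 (no gene was removed), with Benjamini-Hochberg adjustment over all genes, called at adjusted p under 0.05. Log2 differences on this scale understate those of low genes. The script was tested on simulated data with the same spread for C and HFS libraries. That test did not cover the unequal spread seen in AD.

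Members and gene lists were chosen with earlier results of these data known. Beyond the members, genes were named from each list if called, with a mean of at least 50 normalized counts and no overlap of C and HFS, up to 3 per direction, and the 5 nearest profiles of Postn and of Tnc were named. Alternatives were the pseudocount, the filter on low values, scaling, limma-voom, all 8 libraries in 1 fit, a replicate block, and each library left out. Of the other marker lists, skeletal muscle had 0 of 3 called in ASC and 0 of 4 in AD, Schwann cell 1 of 4 and 0 of 4, and tendon, cartilage and bone 0 of 4 and 0 of 9. By limma-voom these counts were the same, and 0, 1, 2, 1, 0 and 2 of these markers in this order were at an unadjusted p under 0.05. Adipocyte markers had 3 of 10 higher in ASC (0.191% to 0.453% of reads in C and 0.315% to 0.395% in HFS), and epithelial and mesothelial markers 0 of 10 called in AD, with 0 at an unadjusted p under 0.05. No promoter entry was found under the symbols Thbs2, Fn1, Eln and Emilin1, so their windows were not searched.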

Additional observations from a re-analysis of the deposited data

Results flagged for a closer look

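Postn, Tnc and Fbn1 were each on opposite sides of C before and after differentiation, with C and HFS libraries that did not overlap in either table. The HFS to C ratio of mean normalized counts was 4.40 in ASC and 0.308 in AD for Postn. For Tnc it was 0.107 in ASC and 1.77 in AD. For Fbn1 it was 1.55 in ASC and 0.556 in AD. The difference between the stages was not tested. All 10 genes were chosen by how HFS differed from C in these tables, so Fbn1 is no independent case, and Postn and Tnc were chosen for moving in opposite directions. Of all genes, 61% in ASC and 47.7% in AD had C and HFS libraries that did not overlap. The share of all genes that changed sides was not counted.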

How the results depend on the processing

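Of 140 recomputed member ratios, 135 kept their direction and moved by less than the spread of the replicates. That spread is the root of the summed squares of both groups' SDs (log2 scale). For wide pairs it allows moves of over 1.5 times such as those given with the members. Leaving out 1 of the 2 libraries of a group can hardly move a ratio beyond it, unless the pair is very far apart. For those settings the 135 is therefore no measure of stability. Direction changed for 4 ratios, each without 1 library: Thbs2 in ASC (1.05 without ASC_HFS replicate 1, within a range of 0.811 to 1.05 over the libraries left out), Fn1 in ASC (0.989 without ASC_C replicate 2, range to 1.45), and Sparc and Ltbp2 in AD (0.904 and 0.901 without AD_C replicate 1, ranges to 1.39 and 2.26). The Fbn1 ratio in ASC was 1.36 on RPM. Members with a higher mean in HFS than in C numbered 6 in ASC and 5 in AD, and 5 to 7 and 3 to 5 with 1 library left out, the 3 being without AD_C replicate 1. The 2731 ASC calls became 0 without any 1 library, as did those of the 4 gene lists. The 244 AD calls ranged from 0 to 9830 with 1 library left out, and the list calls from 0 to 18 (matricellular), 0 to 23 (elastic fibre), 0 to 17 (receptor) and 0 to 17 (processing). AD calls over all genes were 423 with all 8 libraries in 1 fit, 150 by limma-voom, 95 with upper quartile scaling and 0, with 857 at an unadjusted p under 0.05, when the close AD_HFS libraries were averaged, a setting chosen after seeing the data. Averaging also left 0 matricellular and 0 processing calls. The fit of all 8 libraries called 2 elastic fibre, 1 receptor and 2 processing genes in AD. With the replicate number as a block, 661 AD genes were called, 2 elastic fibre, 2 receptor and 4 processing genes among them, and 2976 ASC genes. Whether the replicate numbers pair the libraries is not known. Same-numbered deviations correlated at -0.136 in ASC and 0.00141 in AD. The AD_HFS libraries differ so little (median absolute log2 difference 0.07, against 0.32 in AD_C) that the AD value could hardly show a pairing. The crossed block in ASC, added after seeing the data, called 3634. The causes were not tested. Depth limits ASC_HFS replicate 2, where 10.6% of genes had no reads.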
